A study of Arabidopsis thaliana with 17 samples.

Results

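The genes described here are the 10 actin depolymerizing factor (ADF) genes of Arabidopsis thaliana named ADF1 to ADF5 and ADF7 to ADF11, taken by their TAIR10 locus identifiers from 27444 nuclear protein-coding genes. They are ADF1 (AT3G46010), ADF2 (AT3G46000), ADF3 (AT5G59880), ADF4 (AT5G59890), ADF5 (AT2G16700), ADF7 (AT4G25590), ADF8 (AT4G00680), ADF9 (AT4G34970), ADF10 (AT5G52360) and ADF11 (AT1G01750). A DNase I peak was counted for a gene when its centre lay between 2000 bp upstream of the transcription start site (TSS) and 500 bp past the 3′ end. The genes were taken as members of a family and not by a measured value, but earlier results of these data were known. ADF6 was not analysed here.

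ADF proteins bind actin filaments, sever them and speed the loss of subunits from their ends, so that the filaments are remodelled during growth. In Arabidopsis the family is divided by sequence and by site of expression. ADF1 to ADF4 are expressed through most vegetative tissues, ADF7 and ADF10 in pollen, and ADF8 and ADF11 in root hairs and the cells that form them. ADF5 and ADF9 form a separate class whose proteins bundle filaments rather than sever them.

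The series mapped open chromatin by DNase-seq, in which nuclei are treated with DNase I and the short fragments released by pairs of cuts are sequenced. Nuclei came from INTACT lines in the Col-0 background, which carry a fusion protein of the nuclear envelope (NTF) behind a promoter of choice. The ligase birA, behind the ACT2 promoter in every line, puts biotin on the fusion, and tagged nuclei are captured by it. Hair cell nuclei came from the line ADF8:NTF::ACT2:birA at 7 days. Non-hair cell nuclei came from GL2:NTF::ACT2:birA at 7 days (replicate 2) or 10 days (replicates 1, 3 and 4). Seed coat nuclei came from the same GL2 line, from whole siliques at 7 or 4 days past anthesis (DPA). Open flowers, unopened flowers and whole roots of 7 days came from UBQ10:NTF::ACT2:birA. The fusion in the hair line was therefore driven by the promoter of an ADF gene, and any transgene copy of that promoter is sequenced together with the native locus.

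Of 22 deposited peak lists, 21 were used, because 1 was identical to another. The main comparisons used the 11 lists marked 6.8M, which held between 24751 and 30110 nuclear peaks: 3 from seed coat (the 7 DPA pool, 4 DPA replicate 1 and the 4 DPA pool), 2 from hair cells (replicate 1 and a pool), 4 from non-hair cells and 2 from whole roots. A pool combined the reads of 2 biological replicates and was counted as 1 list, and no 2 of these 11 lists shared a library. Flowers had only unmarked lists of unknown depth, which were short (11748 nuclear peaks in open flowers and 13098 in unopened flowers). The lists hold no read counts, so each peak is given by its percentile, which is its rank by the authors' score within its own list with 100 as the top peak. Overlapping peaks of the lists were merged into sites, and a merged site carries the percentile of its best peak in each list. For single libraries no label says that the plants were grown separately, so p-values measure only the spread between these lists.

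Checks against marker genes bear on what the lists hold. Of 6 root hair genes, 6 and 5 had a peak in the 6.8M hair lists, 5 in each non-hair and whole root list and 1 in each seed coat list. Their summed best-peak percentiles were 256 and 232 in the hair lists and 116 to 255 in the non-hair lists, so this marker list did not separate the root epidermal types. The 4 non-hair genes did by this sum, with 82.0 and 88.0 in the hair lists and 137 to 164 in the non-hair lists. They include GL2, whose promoter is in the transgene of the non-hair line. By number of genes with a peak they did not, with 3 in each hair list and 4, 2, 3 and 2 in non-hair replicates 1 to 4. WER (MYB66) had a peak in both hair lists and none in non-hair replicates 2 and 4. In the unmarked lists root hair genes with a peak numbered 2 in hair, 3 in non-hair, 1 in whole root, 0 in 4 DPA seed coat and 1 in 7 DPA seed coat. All 4 floral organ genes had a peak in each 6.8M seed coat list and in both flower lists, against 1 or 2 in root lists, and 3 of 4 in the unmarked list of 7 DPA replicate 1. Their summed percentiles were 323 to 345 in the 6.8M seed coat lists and 29.2 to 66.6 in the root lists. The 5 seed coat epidermis genes all had a peak in every 6.8M list, root lists included. Their summed percentiles were 415 to 479 in the seed coat lists and 325 to 418 in the root lists, so these groups overlapped. The part of these differences in the results for the ADF genes was not tested.

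Among the root hair members, ADF8 had 1 peak that stood near the top of the hair lists and in the middle or lower range of every other list. The site (chr4:280841-281130, TAIR10) covered the start of ADF8, which lies on the minus strand at chr4:279596-281072, and its centre lay 87 bp past the TSS, in the 5′ UTR. It also covered the gap of 59 bp to ULP1B (AT4G00690), which is transcribed the other way, so the peak can be assigned to either gene. The gap is shown, on the strand of ADF8, because it is all the sequence that separates these 2 starts.
ADF8 to ULP1B gap, chr4:281073-281131, minus strand: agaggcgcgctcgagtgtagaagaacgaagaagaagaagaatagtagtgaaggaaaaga

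In hair replicate 1 and the hair pool this site was at percentile 99.9 in each, as peak 15 of 24751 and peak 21 of 25103 from the top. In non-hair replicates 1 to 4 it was at percentiles 69.4, 67.9, 64.3 and 58.6. In whole root replicates 1 and 2 it was at 61.2 and 68.7. The hair lists lay above all other root lists without overlap, and the 7-day non-hair list (replicate 2) lay within the range of the 10-day ones. In the seed coat the site was at 25.5 in the 7 DPA pool, 28.2 in 4 DPA replicate 1 and 36.4 in the 4 DPA pool, below all 8 root lists. Among the unmarked lists it was at 99.9 in hair (peak 19 of 25190), 39.0 in 4 DPA seed coat, 73.2 in non-hair and 64.8 in whole root, with no peak in either flower list or in the short list of 7 DPA seed coat replicate 1.

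**Figure D1:**
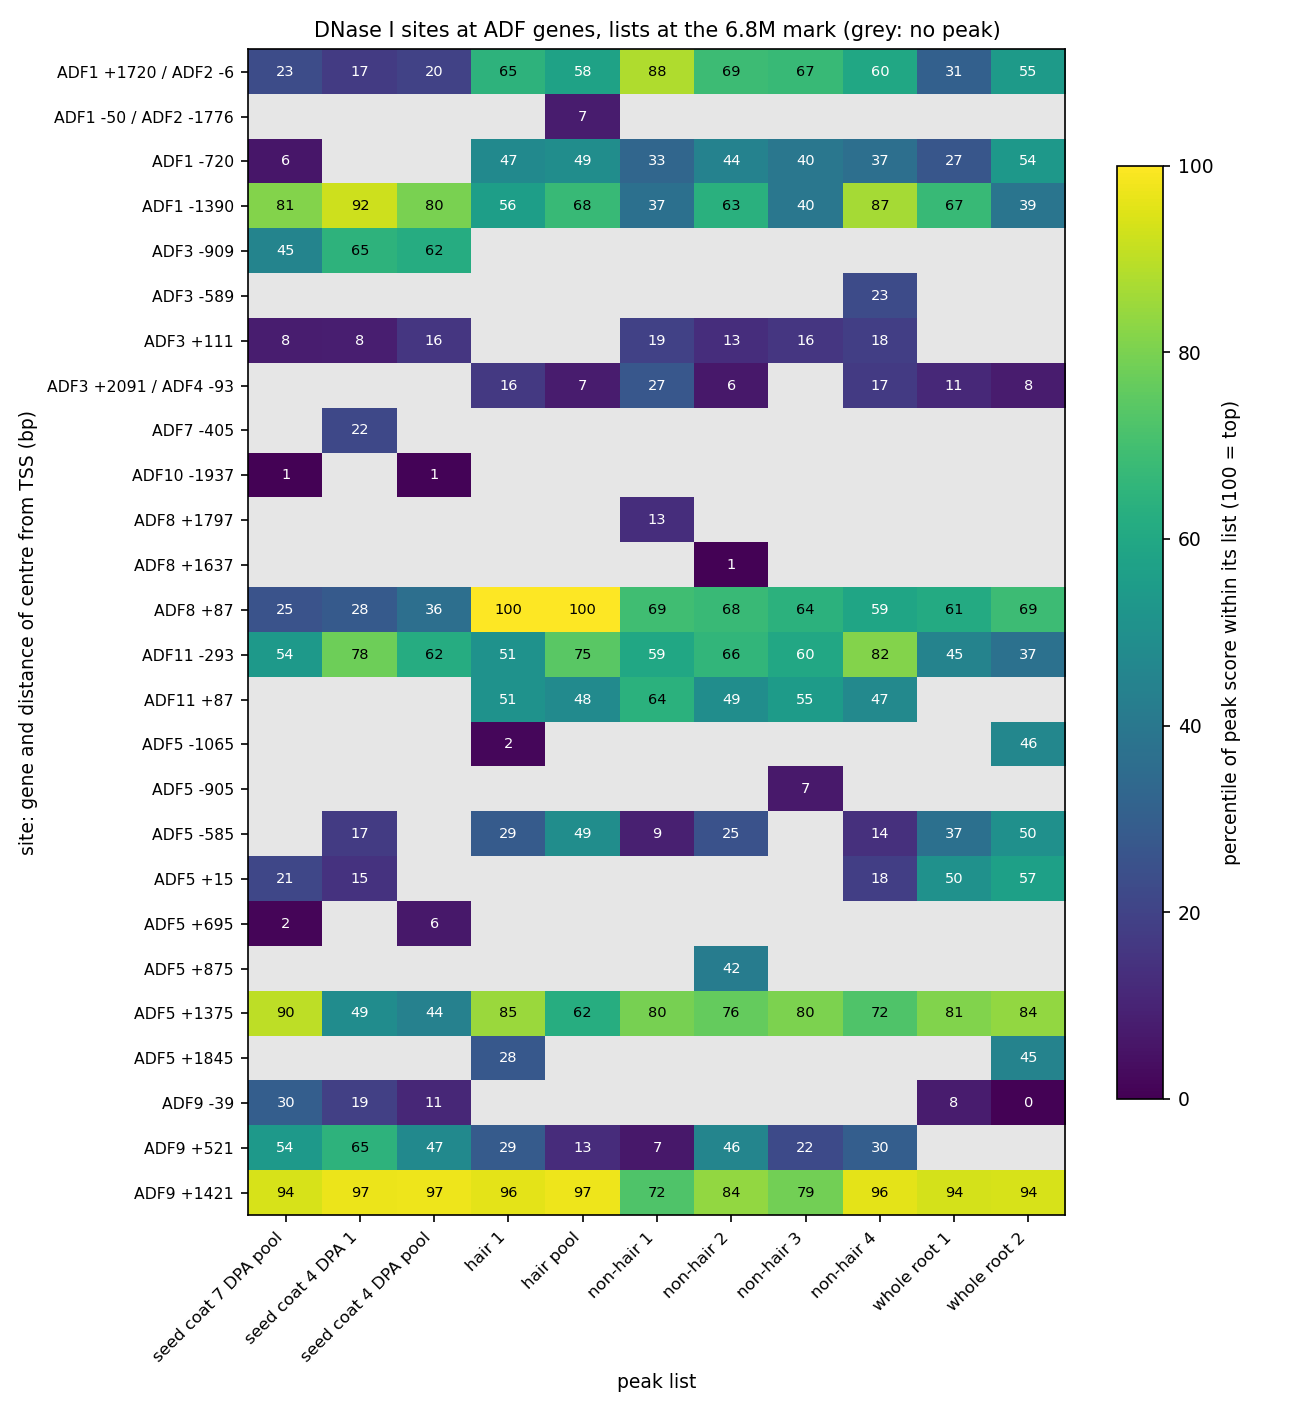
Percentile of the best peak at each of the 26 merged sites of the ADF genes (rows, named by gene and by distance of the site's centre from the TSS in bp) in the 11 lists marked 6.8M (columns), where grey means no peak. The site at the start of ADF8 is at 99.9 in both hair lists and between 25.5 and 69.4 in the other 9, and the site past the 3′ end of ADF9 is above 72 in every list.

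The ADF8 promoter drives the fusion in the hair line, and the other 2 fusion promoters also ranked near the top in their own lines. How far the ADF8 fragment in the transgene extends is not given in the sources used here, so it is not known whether it holds the site, which is centred past the TSS. The best peak of the GL2 promoter, counted from 2000 bp upstream to 200 bp past the TSS, was at percentiles 99.6 to 99.9 in all 7 lists of the GL2 line, against 69.0 and 73.4 in the hair lists and 80.7 and 62.4 in the whole root lists. In 4 DPA replicate 1 the best GL2 peak was centred at -1900 bp from the TSS, and in the other lists between -360 and -260 bp. The UBQ10 promoter was at 99.8 and 99.4 in whole roots, whose line carries it, against 77.8 to 98.6 in the other 9 lists. The ACT2 promoter, carried by every line, was at 99.1 to 99.9 in the root lists and at 85.6 to 94.6 in the seed coat lists. In these 11 lists ADF8, GL2 and UBQ10 thus each ranked higher in a line that carried their promoter than in lines that did not. In the unmarked flower lists, whose line also carries UBQ10, that promoter was at 97.1 (open) and 90.0 (unopened). It was at 65.3 to 91.6 in the unmarked lists of lines without it. The ACT2 promoter was at 79.0 in open and 65.2 in unopened flowers, and at 81.6 to 99.9 in the other unmarked lists. For ADF8 the line and the cell type change together, and whether the high rank in hair lists came from the native gene or from transgene copies cannot be told apart.

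**Figure D2:**
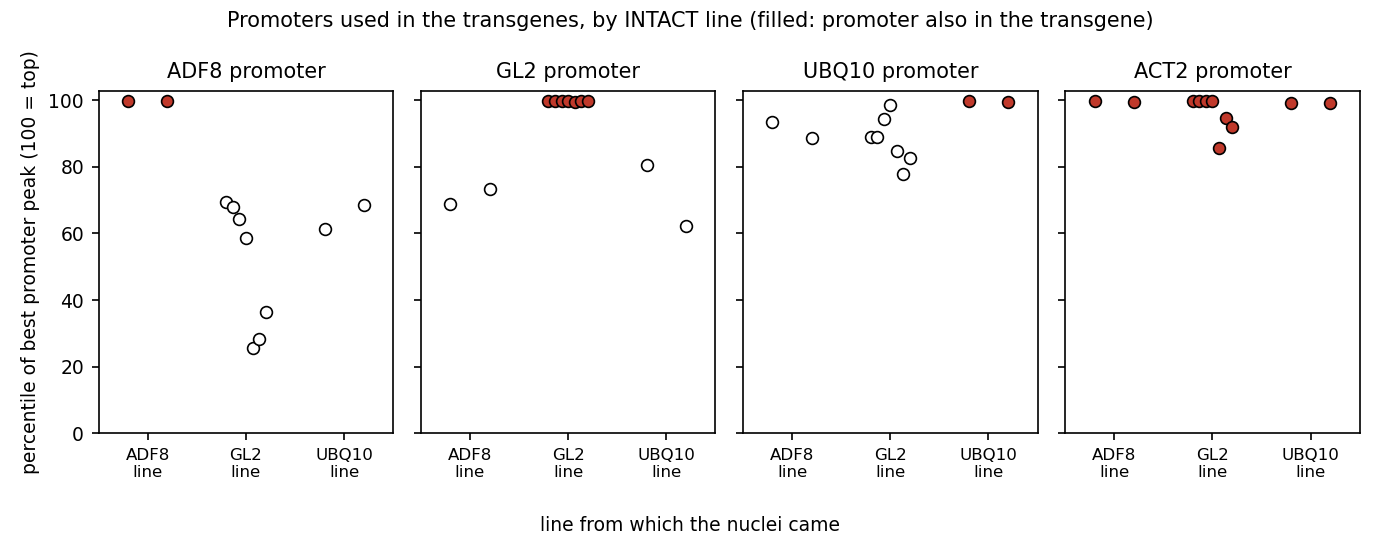
Percentile of the best promoter peak (vertical axis, 100 is the top peak) of ADF8, GL2, UBQ10 and ACT2 in the 11 lists marked 6.8M, arranged by the INTACT line from which the nuclei came, with each point 1 list and filled points for lines whose transgene holds that promoter. The filled points of ADF8 (99.9 in both hair lists), GL2 (99.6 to 99.9) and UBQ10 (99.4 and 99.8) lie above all open points of the same promoter.

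For the test, each list was cut to its best 24751 peaks and each gene was given the percentile of its best peak in the window, or 0 with no peak. ADF8 then averaged 99.9 ± 0.0171 in hair (SD, n = 2) and 61.5 ± 7.32 in non-hair (SD, n = 4), a difference of 38.4. The two-sided exact permutation p was 0.0667, which is the smallest that 2 lists against 4 can give, and the Benjamini-Hochberg adjusted p over 21093 genes was 0.418. The lowest hair list lay 32.5 percentile points above the highest non-hair list, and 16 of the 21093 genes had a larger gap. Against all 9 other lists, 5 of 23055 genes had a larger gap than ADF8. ADF9, one of the bundling class, was the other member with both hair lists above all non-hair lists, by a gap of 0.754 points. Its best peak in each of these lists was at a site past its 3′ end, before a tRNA gene. In a window from 1000 bp upstream to the 3′ end, without that site, ADF8 alone was above. In the main window, 2 of the 8 members tested are to be read against 13% of all genes with both hair lists above. Both hair lists were below for 16.2% of all genes. None of the 21093 genes had an adjusted or an unadjusted p under 0.05.

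ADF11, the other root hair member, had 2 sites near its start. The first (chr1:274801-274990) was centred 293 bp upstream of the TSS, nearer to the start of BSK4, a brassinosteroid signalling kinase gene transcribed the other way. The second (chr1:275141-275410) was centred 87 bp past the TSS of ADF11, which lies on the plus strand at chr1:275188-276310. The 257 bp between the 2 genes are shown because both sites reach into them.
BSK4 to ADF11 gap, chr1:274931-275187, plus strand: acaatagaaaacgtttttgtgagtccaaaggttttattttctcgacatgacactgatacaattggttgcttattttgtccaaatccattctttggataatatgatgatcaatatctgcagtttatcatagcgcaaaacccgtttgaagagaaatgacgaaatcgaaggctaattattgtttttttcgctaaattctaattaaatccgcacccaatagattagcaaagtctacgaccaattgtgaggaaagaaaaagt

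The site at the start of ADF11 was at percentiles 51.1 and 47.8 in the hair lists and at 63.9, 49.2, 54.9 and 47.0 in non-hair replicates 1 to 4, and no whole root or seed coat list had it. It was thus in every list of the root epidermis and in no other, with overlapping values in hair and non-hair. Of all 49442 sites at this depth, 150 (0.303%) showed that pattern. Among the unmarked lists it was at 49.3 in hair and 74.5 in non-hair, and absent from whole root, both seed coat lists and both flower lists. The site towards BSK4 was in all 11 lists, at 54.2, 77.8 and 61.8 in the seed coat, 51.1 and 74.5 in hair, 59.5, 65.7, 59.8 and 81.6 in non-hair and 44.9 and 37.3 in whole root. Its values overlapped between seed coat and root. It was also in open flowers at 47.1 and in unopened flowers at 65.2, and absent from the unmarked lists of non-hair replicate 1 and 7 DPA seed coat replicate 1. In lists of equal length the best peak in the whole window of ADF11 was at 51.1 and 74.1 in hair and 61.5, 64.0, 56.2 and 78.3 in non-hair. The mean difference, -2.40 points, was smaller than the SD of either group (16.3 in hair, n = 2, and 9.45 in non-hair, n = 4).

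By Pearson correlation of the best-peak percentile over the 11 lists, the genes most like ADF8 among 18769 compared were RALFL29 and AT4G11655, which share their peaks (r = 0.970), and AT1G78260 (r = 0.970). RALFL29 encodes a peptide related to the rapid alkalinization factors. It was at 61.4 and 64.5 in hair, 17.8 to 42.1 in non-hair, 33.4 and 26.3 in whole root and without a peak in the seed coat. For ADF11 they were BRG2 (r = 0.927) and the pair CDKB2;2, a mitotic cyclin-dependent kinase gene, and AT1G20940, which also share peaks (r = 0.918). The 11 points include lists of the same line and tissue, so these correlations describe the lists only.

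Among the vegetative members, ADF1 and ADF2 are neighbours on the minus strand of chromosome 3 (ADF1 at chr3:16909217-16910845, ADF2 at chr3:16907334-16909119). A gap of 97 bp separates the end of ADF1 from the start of ADF2, and 1 wide site (chr3:16908881-16909370) covered it, centred 6 bp upstream of the ADF2 TSS. The gap is shown because it is the only stretch between these 2 genes.
ADF2 to ADF1 gap, chr3:16909120-16909216, minus strand: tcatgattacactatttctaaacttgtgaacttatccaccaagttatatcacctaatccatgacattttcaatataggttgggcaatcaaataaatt

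This site was in all 11 lists. It was at percentiles 23.4 in the 7 DPA pool, 17.5 in 4 DPA replicate 1 and 19.8 in the 4 DPA pool, against 64.7 and 57.7 in hair, 88.2, 68.6, 67.5 and 59.8 in non-hair and 30.7 and 54.6 in whole root. All seed coat values lay below all root values. In lists of equal length ADF2 averaged 8.16 ± 8.16 in the seed coat (SD, n = 3) and 58.7 ± 17.7 in root (SD, n = 8), a difference of -50.5 points (two-sided exact permutation p = 0.00606, the smallest possible here, adjusted p = 0.0230 over 23055 genes). Among the unmarked lists the site was at 21.1 in 4 DPA seed coat, 67.2 in hair, 88.2 in non-hair and 47.3 in whole root, with no peak in 7 DPA seed coat or in flowers.

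ADF1 had almost no peak at its own start. A single list, the hair pool, had 1 there, at percentile 7.46. A site 720 bp upstream was at 5.98 in the 7 DPA pool and absent from the other 2 seed coat lists, against 47.5 and 48.9 in hair, 33.1, 44.5, 39.8 and 36.6 in non-hair and 26.8 and 53.5 in whole root. A site 1390 bp upstream, nearer to the start of AT3G46020, ran the other way in most lists, at 81.3, 92.3 and 79.9 in the seed coat and 37.1 to 86.6 in root, with 1 non-hair list (replicate 4, 86.6) inside the seed coat range. In the seed coat lists that distant site was the best peak in the window of ADF1. In hair replicate 1, non-hair replicates 1 to 3 and whole root replicate 2 the best was the site at the ADF2 start. That site also falls in the window of ADF1. The whole window averaged 82.4 ± 7.26 in the seed coat (SD, n = 3) and 68.8 ± 11.7 in root (SD, n = 8). The difference did not pass the exact permutation test (p = 0.109, adjusted p = 0.203). In a window that stopped 1000 bp upstream and at the 3′ end, the sign turned and the difference was -51.6 points (exact permutation p = 0.00606, adjusted p = 0.0239). With each peak given to the gene of the nearest TSS it was -37.1 points (exact permutation p = 0.00606, adjusted p = 0.0232). Neither of these 2 settings counted the site near AT3G46020, and they differed in the site at the ADF2 start. The 1000 bp window still held its peaks in non-hair replicates 1, 3 and 4, and the nearest TSS gave them to ADF2. The direction for ADF1 thus depended on which sites near neighbouring genes were counted.

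ADF3 and ADF4 lie in tandem on the plus strand of chromosome 5 (ADF3 at chr5:24120164-24121949, ADF4 at chr5:24122348-24123912), 398 bp apart. The site that separated the tissues lay upstream of ADF3, at chr5:24119121-24119390, centred 909 bp before the TSS and across the start of a long non-coding RNA gene, AT5G08940 (chr5:24119264-24119503). Its sequence is shown because it was the only ADF site found in every seed coat list and in no root list at this depth. Capitals mark 1 W-box (TTGACC or TTGACT) and 4 TATA boxes (TATAAA) on either strand, without overlap. Of all 49442 sites, 23.2% had a W-box and 26.3% a TATA box in their central 150 bases, a shorter stretch than the 270 shown.
Site upstream of ADF3, chr5:24119121-24119390, plus strand: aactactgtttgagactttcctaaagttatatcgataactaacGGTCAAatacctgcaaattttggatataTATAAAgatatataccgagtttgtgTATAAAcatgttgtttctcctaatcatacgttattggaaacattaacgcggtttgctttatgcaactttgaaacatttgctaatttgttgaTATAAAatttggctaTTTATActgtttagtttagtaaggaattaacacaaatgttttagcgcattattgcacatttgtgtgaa

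The site was at percentiles 45.1 in the 7 DPA pool, 64.5 in 4 DPA replicate 1 and 61.8 in the 4 DPA pool, and none of the 8 root lists had it. Fisher's exact test (two-sided) gave p = 0.00606 and an adjusted p of 0.0499 over 49442 sites, just under the threshold of 0.05, which 12.2% of all sites passed. This was 1 of 26 member sites, against 6.01% of all sites present in the seed coat lists only, and no member site was present in all root lists only, against 6.15% of all sites. The position of the called peak moved with depth. In the 6.65M list of 4 DPA replicate 1, and in the unmarked list of that library (chr5:24119461-24119610, percentile 59.9), the peak lay further towards ADF3, and non-hair replicate 4 had a peak there too (chr5:24119501-24119650, percentile 22.7). The unmarked list of 7 DPA replicate 1 had a weak peak at the original place (chr5:24119221-24119370, percentile 4.28). With the 6.65M seed coat lists, or with the unmarked lists, no ADF site was seed coat-only.

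The site at the start of ADF3 itself, centred 111 bp past the TSS, was low in every list that had it. It was at 8.01 in the 7 DPA pool, 8.27 in 4 DPA replicate 1 and 15.7 in the 4 DPA pool, and at 19.4, 13.2, 16.0 and 18.5 in non-hair replicates 1 to 4, and absent from both hair and both whole root lists. It was the 1 member site among 21 that was in every non-hair and no hair list, against 1.77% of all sites, and no member site was hair-only, against 0.779%. Counted by gene, 1 of the 8 members with a site in the hair or non-hair lists had a non-hair-only site and 0 a hair-only site. Of all 21704 genes with a site in these lists, 4.36% had a non-hair-only and 1.41% a hair-only site. For the site at the ADF3 start, Fisher's exact test gave p = 0.0667, the smallest possible with 2 lists against 4. No site of the 36188 was under 0.05 before or after adjustment. At 6.8M all 7 lists of the GL2 line had this site and the 4 lists of other lines did not, a pattern that 148 of 49442 sites (0.299%) showed. Among the unmarked lists it was at 26.5 in 4 DPA seed coat, 24.1 in non-hair and also 14.0 in whole root. The 6.65M list of the 7 DPA pool and the unmarked list of 7 DPA replicate 1, both of the GL2 line, lacked it.

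The ADF4 start had a weak site, centred 93 bp upstream of the TSS, which also falls in the window past the end of ADF3. No seed coat list at this depth had it. In root it was at 16.5 and 7.46 in hair, 27.1, 6.42 and 17.0 in non-hair replicates 1, 2 and 4, and 11.5 and 7.75 in whole root, and non-hair replicate 3 lacked it. The contrast of seed coat and root lists gave p = 0.0242 in Fisher's exact test and an adjusted p of 0.150. The 4 DPA seed coat list without a depth mark had the site at 2.21.

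Over the whole window, ADF3 averaged 51.1 ± 9.51 in the seed coat (SD, n = 3) and 9.44 ± 7.02 in root (SD, n = 8), a difference of 41.6 points (two-sided exact permutation p = 0.00606, adjusted p = 0.0230). Its single seed coat lists were at 40.1, 56.8 and 56.3, and all root lists were between 0 and 22.3. ADF8 fell to 19.5 ± 7.27 in the seed coat, against 71.3 ± 18.5 in root, a difference of -51.8 points with the same p values. When the 2 hair lists, whose line carries the ADF8 promoter, were taken out of the root group, the difference for ADF8 was -40.3 points, for ADF2 -47.6 and for ADF3 40.2, and each passed the exact permutation test (p = 0.0119, adjusted p = 0.0453). With the 7 DPA pool, 4 DPA replicate 1 or the 4 DPA pool left out, these 3 differences kept their signs but 2 lists against 8 could not pass the adjusted threshold (exact permutation p = 0.0222, adjusted p 0.0672 to 0.0746). In lists cut to 12375 peaks none of the 3 passed the exact permutation test, at 8.73 points for ADF3 (adjusted p = 0.131), -23.6 for ADF2 (adjusted p = 0.318) and -42.6 for ADF8 (adjusted p = 0.142). ADF4, ADF5, ADF7, ADF9 and ADF11 did not pass the test, and ADF10 had no peak in the lists of equal length.

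Thus 1 of 9 members rose in the seed coat and 2 fell, at a background where 31.2% of 23055 genes passed in either direction (17.1% higher and 14.1% lower in the seed coat). Of all genes, 16.6% had every seed coat list above every root list, as ADF3 did, and 13.3% had every one below, as ADF2 and ADF8 did. The median difference was 1.62 points over the 9 members and 3.48 points over all genes tested. These shares are near the background, so the count of members with a difference does not set the family apart.

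**Figure D3:**
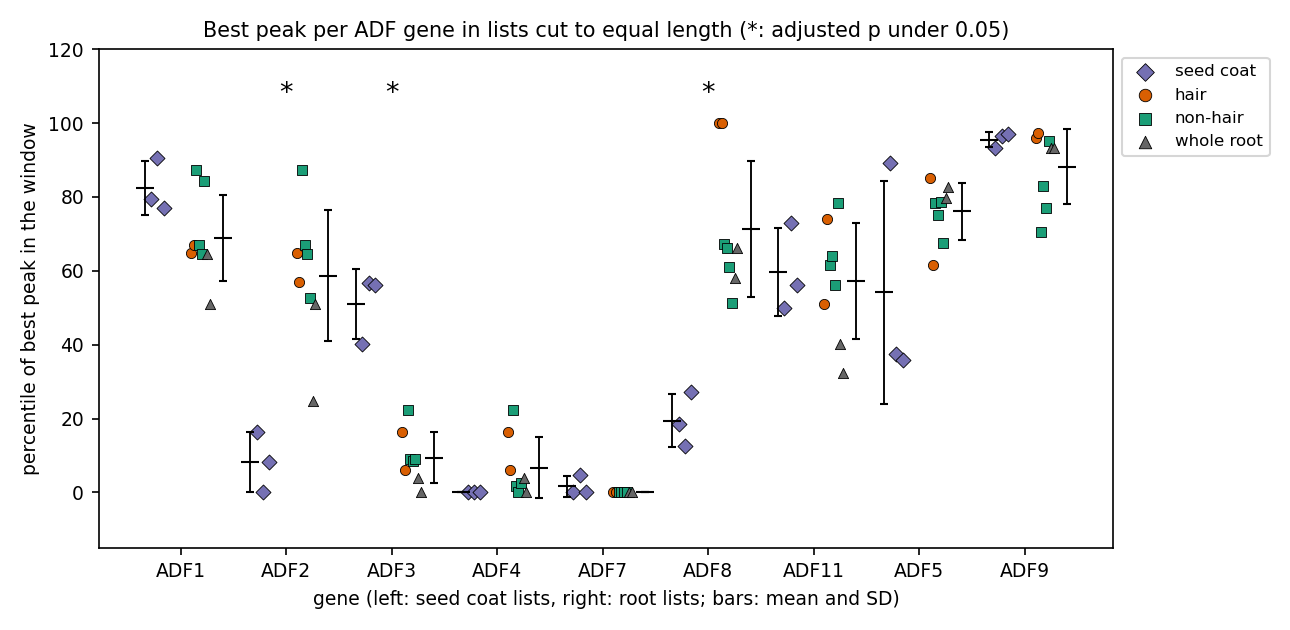
Percentile of the best peak in the window of each ADF gene (vertical axis) in lists cut to 24751 peaks, with the 3 seed coat lists on the left and the 8 root lists on the right of each gene, marks for each cell type and bars for mean and SD. ADF3 lies higher in all seed coat lists (40.1 to 56.8, against 0 to 22.3 in root), and ADF2 and ADF8 lie lower.

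Of the filament-bundling class, ADF9 carried a site that ranked high in every list. It lay past the 3′ end (chr4:16655041-16655210), 85 bp beyond the end of ADF9 (plus strand, chr4:16653704-16654955) and 75 bp before a tRNA gene, AT4G34975 (chr4:16655286-16655359). The sequence is shown with 2 matches to site II, the element bound by TCP factors (TGGGCC or TGGGCT, either strand, no overlap), in capitals. Of all 49442 sites, 18.9% had a match in their central 150 bases, against 170 bases shown here.
Site past ADF9, chr4:16655041-16655210, plus strand: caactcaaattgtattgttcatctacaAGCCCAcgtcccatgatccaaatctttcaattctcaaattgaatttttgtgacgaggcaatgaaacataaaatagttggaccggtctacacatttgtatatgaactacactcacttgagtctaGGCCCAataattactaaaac

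This site was at percentiles 93.8, 97.0 and 97.3 in the seed coat, 96.0 and 97.5 in hair, 72.4, 83.7, 78.8 and 95.9 in non-hair and 93.7 and 93.8 in whole root. It was also at 94.2 in open and 88.6 in unopened flowers. Non-hair replicates 1 to 3 were the lowest, and replicate 4 reached the other groups. Whether the peak belongs to ADF9 or to the tRNA gene was not tested. Of 625 nuclear tRNA genes, 346 (55.4%) had a site within the 300 bp before them, and 88 (14.1%) had 1 in all 11 lists.

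Within ADF9 an intron site, centred 521 bp past the TSS, was at 54.2, 64.5 and 47.3 in the seed coat, 28.9 and 12.5 in hair and 6.59, 45.6, 22.3 and 30.0 in non-hair, with no peak in either whole root list. By percentile within whole lists, all seed coat values of this site lay above all root values. By rank from the top the groups overlapped, where non-hair replicate 2 (peak 13958) stood above the 4 DPA pool (peak 14805). The unmarked whole root list did have it, at 42.5, as did open flowers, at 27.1. At the ADF9 promoter, 39 bp upstream of the TSS, a weak site was at 29.7, 19.0 and 11.3 in the seed coat and 7.61 and 0.439 in whole root, and none of the 6 epidermal root lists had it (Fisher's exact test, seed coat against root, p = 0.0606, adjusted p = 0.228).

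ADF5 (plus strand, chr2:7244500-7246069) had the most sites, 8 in its window, and its strongest was at its far end, in the 3′ UTR (centre 1375 bp past the TSS). That site was at 90.0 in the 7 DPA pool, 48.6 in 4 DPA replicate 1 and 44.0 in the 4 DPA pool, 85.1 and 62.2 in hair, 79.6, 76.3, 80.4 and 72.5 in non-hair and 81.2 and 83.9 in whole root. The 2 lists of 4 DPA were the lowest of the 11 and the 7 DPA list was the highest. In lists of equal length the best peak of ADF5 was at 89.1 at 7 DPA and at 37.5 and 35.8 at 4 DPA, and this contrast between stages rests on 1 list at 7 DPA and was not tested. At the ADF5 start a site was in 5 lists, highest in whole root (50.4 and 56.7) and otherwise at 21.3 in the 7 DPA pool, 14.6 in 4 DPA replicate 1 and 18.5 in non-hair replicate 4. Both hair lists lacked it. A site 585 bp upstream was in 8 of the 11 lists, at 8.77 to 50.1.

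**Figure D4:**
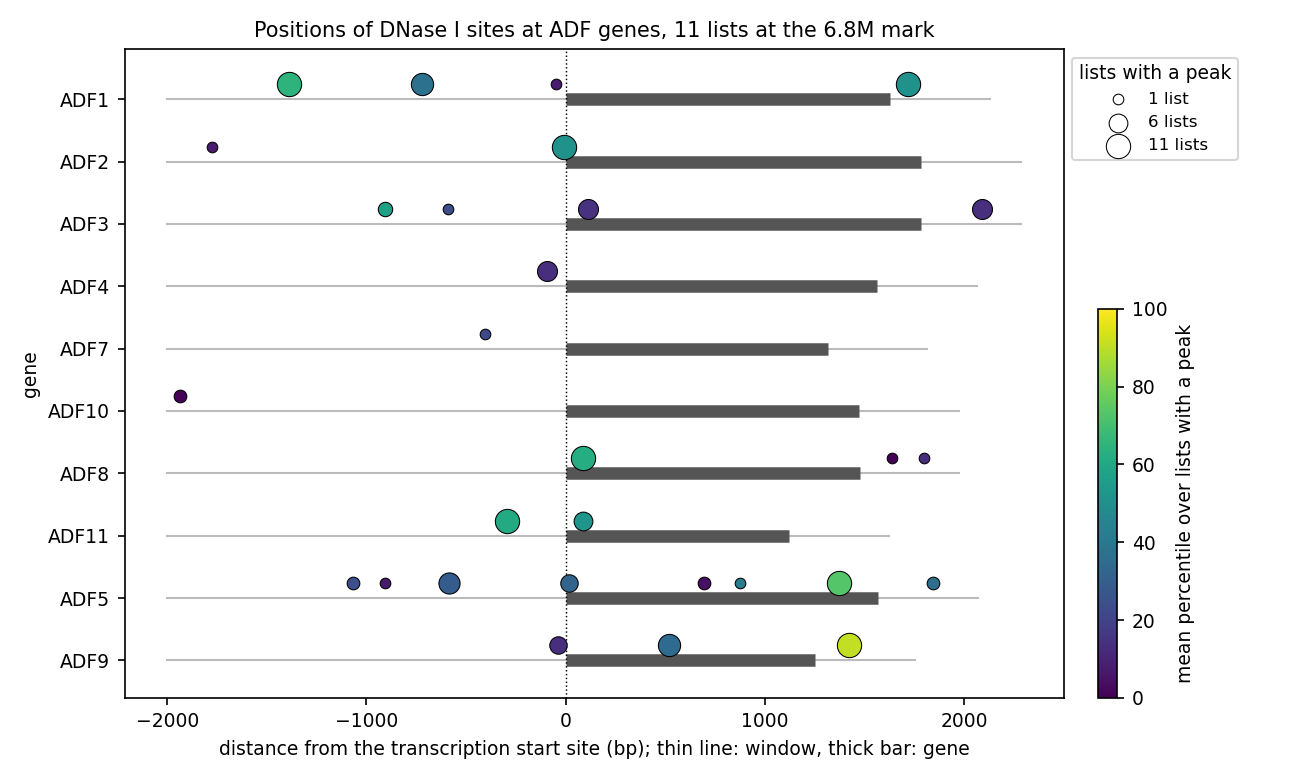
Distance from the TSS in bp (horizontal axis) of every site at the 10 ADF genes (rows) in the 11 lists marked 6.8M, where a circle's size gives the number of lists with a peak, its colour the mean percentile over those lists, the thick bar the gene and the thin line the window. ADF4, ADF7 and ADF10 have 1 site each, and the sites of ADF7 (405 bp upstream) and ADF10 (1937 bp upstream) are in 1 and 2 lists.

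The pollen members ADF7 and ADF10 were nearly without peaks. ADF7 (minus strand, chr4:13058936-13060250) had 1 site, 405 bp upstream in the 5′ UTR of the neighbouring gene AT4G25600, in 4 DPA replicate 1 at percentile 21.8 (24.5 in its unmarked list). ADF10 (minus strand, chr5:21257934-21259408) had 1 site, 1937 bp upstream and nearer to AT5G52370, in the 7 DPA pool at 0.771 and in the 4 DPA pool at 0.869, and at 7.88 in the unmarked list of 4 DPA replicate 1. Neither gene had a peak at its start in any list, flowers included. Pollen marker genes gave little to set beside this, with 1 of 3 having a peak in open flowers and 2 of 3 in unopened flowers, and with 1 or 2 in every root and seed coat list. The bases before the 2 starts are shown because they share a run of 16 bases, in capitals. It occurs in the same 250 bases of none of the other protein-coding genes. Most runs of this length would be absent there, so that absence says little. The run was noticed after the sequences were seen, and the longest runs shared by other pairs of related members were of 9 bases.
Before ADF7, chr4:13060251-13060500, minus strand: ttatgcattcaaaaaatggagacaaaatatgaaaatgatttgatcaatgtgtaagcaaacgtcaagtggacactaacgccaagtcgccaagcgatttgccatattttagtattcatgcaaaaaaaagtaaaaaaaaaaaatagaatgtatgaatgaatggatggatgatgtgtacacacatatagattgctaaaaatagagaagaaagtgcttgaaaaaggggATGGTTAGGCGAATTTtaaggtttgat
Before ADF10, chr5:21259409-21259658, minus strand: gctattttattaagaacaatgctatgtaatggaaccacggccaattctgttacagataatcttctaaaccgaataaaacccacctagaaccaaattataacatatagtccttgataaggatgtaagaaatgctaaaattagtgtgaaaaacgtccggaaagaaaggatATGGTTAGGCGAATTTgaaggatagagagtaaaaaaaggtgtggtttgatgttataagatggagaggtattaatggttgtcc

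In ADF7 the run lay 27 to 12 bases before the TSS and in ADF10 82 to 67 bases before it. No peak covered either stretch.

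Flowers were compared with the other unmarked lists by presence only, since list lengths differed from 11748 to 32159 nuclear peaks. In each flower list 4 of the 10 members had a peak in the window (ADF1, ADF5, ADF9 and ADF11), against 39.1% of all genes in open and 42.1% in unopened flowers. No member site was in both flower lists and no other list (0.277% of 48355 sites were), and none was in all 5 other lists and neither flower list (2.64% were). Counted by gene these shares were 0.531% and 7.54% of 23923 genes. The exact test cannot go below p = 0.0476 here, and no site passed after adjustment. A site 1175 bp upstream of ADF5 came closest to a flower-only site, at 65.7 in open flowers and 27.0 in unopened flowers, against 8.93 in 4 DPA seed coat and no peak in the other 4 lists (Fisher's exact p = 0.143, adjusted p = 1).

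**Figure D5:**
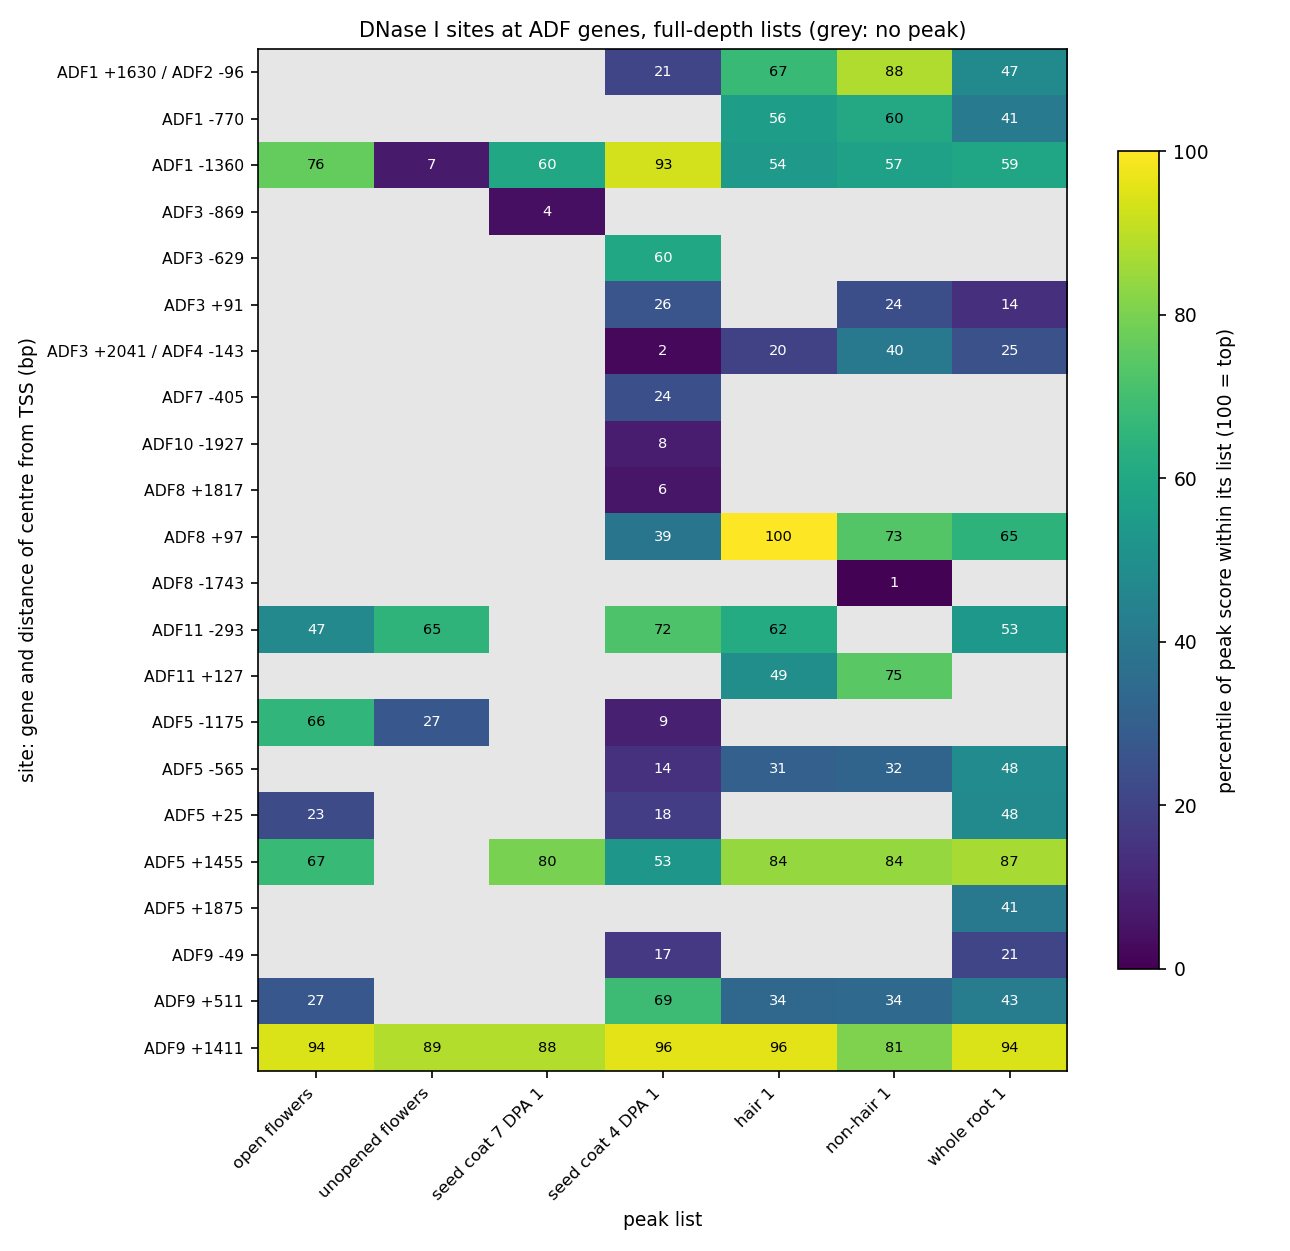
Percentile of the best peak at each of the 22 merged sites of the ADF genes (rows, by gene and distance of the centre from the TSS in bp) in the 7 unmarked lists (columns), where grey means no peak. The sites 1360 bp upstream of ADF1 and past the 3′ end of ADF9 are in all 7 lists, and neither flower list has a peak at ADF2, ADF3, ADF4, ADF7, ADF8 or ADF10.

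Across the family, 26 sites lay in the windows at 6.8M. Of these 6 (23.1%) were in every list, against 21.6% of all 49442 sites, and 7 (26.9%) were in 1 list, against 18.1% of all sites. Between 4 and 6 of the 10 members had a peak from 400 bp upstream to 200 bp past the TSS in a 6.8M list, against 43.7% to 54.2% of all genes. ADF2, ADF8 and ADF11 had such a peak in every one of these lists, and ADF7 and ADF10 in none.

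In the 250 bases before the start, the core of the root hair element (GCACGA, or the same with T as its first base, its last base or both, on either strand) was in none of the 10 members, against 17.9% of 27443 genes. These bases take in only the upstream edge of the sites at the starts of ADF8 and ADF11, which are centred 87 bp past the TSS. The G-box (CACGTG), the L1 box (TAAATGCA or TAAATGTA) and the CArG box were also in none, against 6.49%, 4.49% and 2.52%. A TATA box was found before ADF1, ADF3, ADF5 and ADF9 (47.3% of all genes), a W-box before ADF2 and ADF4 (28.4%) and site II before ADF4 (19.2%).

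A list of 21 other genes of actin turnover gives the family's surroundings. Of these 20 had a site. A seed coat-only site lay at 4 of them, PRF3 and PRF5, which encode profilins that bind actin monomers, and AIP1-1 and AIP1-2, whose product assists ADF in severing, against 13.4% of 23777 genes. A root-only site lay at 2, the profilin gene PRF4 and the villin gene VLN4, against 12.4%. None had a hair-only, non-hair-only or flower-only site, against 1.41%, 4.36% and 0.531% of all genes with a site. A site in all unmarked lists but those of flowers lay at 2, CAP1 and the capping protein gene CPA, against 7.54%. By the best-peak percentile, 4 of 20 tested were higher in the seed coat and 3 lower, with a median difference of 10.2 points. The higher ones were CAP1, whose product recharges actin monomers (89.5 in seed coat and 36.9 in root), the formin gene FH1 (65.2 in seed coat and 22.7 in root), VLN1 (42.9 in seed coat and 8.88 in root) and PRF3 (10.5 in seed coat and 0 in root). The lower ones were PRF4 (12.3 in seed coat and 74.2 in root), VLN4 (42.0 in seed coat and 72.0 in root) and VLN3 (84.6 in seed coat and 98.2 in root). For each of these 7 the exact permutation p was 0.00606 and the adjusted p 0.0230, against 17.1% and 14.1% of all genes. The test between hair and non-hair lists cannot pass its threshold for any gene.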

How the data were processed

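Peak lists were used as deposited. Bowtie 0.12.7 and the build TAIR10 are named in the submitters' processing notes, with no role given, and the peak caller is not given in the sources used here. The score of each peak is the authors' own, a whole number in value in every list, and was used only to rank peaks within a list. The deposited −log10 p of the unmarked lists was not used. The marks 6.8M and 6.65M are read as a common number of reads, which no label states. Peaks were placed on the RefSeq annotation of TAIR10.1, whose nuclear chromosomes contain all peak coordinates. Organelle peaks were left out. Replicate numbers follow accession order, since the labels give none, and only name lists.

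Peaks of all lists of 1 depth were merged (gap 0 bp) and a list had a site with an overlap of at least 1 bp. Tied scores shared their mean rank. Tests were Fisher's exact test per site and the exact permutation test of list labels on the best-peak percentile in lists of 24751 peaks, both two-sided, with Benjamini-Hochberg adjustment over all sites or genes and a threshold of 0.05. With no read counts, counting error cannot be given. The members, gene lists and motifs were chosen with earlier results of these data known, and all 10 members are named. Of the 21 other actin genes, those with a separating site or a called difference are named, the second of these chosen after their values were seen. Alternatives changed the window, overlap, depth mark and list length, or left out lists. Of the 21 actin gene symbols, 19 matched RefSeq, and AIP1-1 and AIP1-2 were matched by locus. Python 3.11.15, numpy 2.4.6, scipy 1.17.1 and matplotlib 3.10.9 were used, and the tests were checked on simulated data.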

Additional observations from a re-analysis of the deposited data

Results flagged for a closer look

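In the 4 non-hair lists of equal length, the best peak in the windows of ADF3 and of ADF4 was at percentile 22.3 in replicate 1, far from the other 3 lists of each gene, which were between 8.53 and 9.11 for ADF3 and between 0 and 2.49 for ADF4. Both values are of the same peak, which lies just upstream of the start of ADF4 and inside both windows. Chance marks about 1 in 20 such groups, and 18 were examined. Replicates 1, 3 and 4 of these lists were from 10-day seedlings.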

How the results depend on the processing

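No paired analysis was possible because the labels carry no replicate numbers, and those used here only name lists in accession order. The lists hold no read counts, so an absent peak may be a peak under the caller's threshold, and the short lists (11748 to 13643 peaks) limit what absence shows. The cause of each change below was not tested beyond what the setting itself changes. Of the counts over members under the alternatives, 109 stayed within 1.5 times the reported count and 43 did not.

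For sites present in the seed coat lists only (1 reported, ADF3), the count was 0 with the unmarked lists, with lists of the best 12375 peaks and with the 6.65M seed coat lists, and 2 with single libraries only. Root-only sites (0 reported) were 1 with the unmarked lists, with lists of equal length, with lists of 12375 peaks and with single libraries. Leaving out 1 list gave 1 to 3 seed coat-only and 0 to 1 root-only sites. Hair-only sites (0 reported) were 2 with the unmarked lists, 1 with equal length and 2 with single libraries. Non-hair-only sites (1 reported, ADF3) were 3 with the unmarked lists and 0 with the shortened ones. The unmarked lists here were 1 of hair and 1 of non-hair, so any site in only 1 of them counted. No share over all sites was computed for these settings. Leaving out 1 list gave 0 to 2 hair-only sites. Flower-only sites (0 reported) were 1 with equal length (ADF5), and with 1 list left out they were 0 to 1 and the sites of all other lists 0 to 4.

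For the best peak in seed coat against root (1 higher and 2 lower reported), 2 members were higher with the 1000 bp window, where ADF9 also passed, and 0 were higher and 0 lower with the unmarked lists, with 12375 peaks and with single libraries. The unmarked lists (2 against 3) and the single libraries (1 against 7) are too few to reach the threshold. With 1 list left out 0 to 1 were higher and 0 to 2 lower. The sign turned for ADF1 with the 1000 bp window (-51.6) and the nearest TSS (-37.1), and for ADF11 with the nearest TSS (-36.9), the unmarked lists (-9.11) and 12375 peaks (-1.62), with a range of -4.14 to 7.36 when 1 list was left out. ADF2, ADF3 and ADF8 kept their signs in every setting run, but not their sizes. With 12375 peaks ADF3 was at 8.73, ADF2 at -23.6 and ADF8 at -42.6, and with the unmarked lists ADF3 was at 4.92, ADF2 at -38.7 and ADF8 at -57.2.

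For hair against non-hair (2 members above in every list, 0 below), 1 was above with the 1000 bp window (ADF8, without ADF9). Below were 1 with that window, 1 with the nearest TSS and 5 with the unmarked lists. The unmarked setting was 1 hair list against 1 non-hair list, in which any member without a tie lies above or below. No share over all genes was computed for these settings. With single libraries, where hair has 1 list, 1 was below. With 1 list left out 0 to 2 were below. ADF8 was above in every setting run. The sign turned for ADF1 with the nearest TSS (15.2), for ADF3 with single libraries (4.23), for ADF4 with the unmarked lists (-16.4) and whole lists (-0.672), and for ADF5 with the nearest TSS (0.191), the unmarked lists (0.979) and single libraries (10.2). With 1 list left out the differences ran from -13.9 to 9.0 for ADF11, -6.00 to 4.23 for ADF3, -0.159 to 9.85 for ADF4 and -13.1 to 10.2 for ADF5, and none of these passed a test.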
